A study of Mus musculus with 9 samples.

Results

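A set of 856 regions of the mouse genome carried a peak of Hdac1 and a peak of Hdac2 in the Bry line and no peak in the other lines of the study. The peaks of all 6 deposited lists were merged where they overlapped by 1 bp or more on chromosomes 1 to 19, X and Y, which gave 24761 merged regions. Regions were kept when they held a Bry Hdac1 peak and a Bry Hdac2 peak and no peak of the other 4 lists, so the kept regions were 3.46% of all merged regions. The regions were thus chosen by presence or absence of a peak in the 6 lists, and peak presence, width and list order are therefore given below as description only.

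The study profiled Hdac1 and Hdac2 by ChIP-seq in haemogenic endothelium grown in culture from ES cells of C57BL/6 mice, with no treatment. The groups used here were Bry, at passage 16 to 19, and set against it Hd1_loxlox and Hd2lox, both at passage 25 to 30. Each line gave 1 Hdac1 and 1 Hdac2 library, and its input library was not analysed here. The line names are the labels' own, and the labels do not describe the alleles behind them. With 1 library per line and antibody no difference between lines has a replicate check, line and passage cannot be told apart, and no p-value is given.

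Hdac1 and Hdac2 are closely related class I histone deacetylases that remove acetyl groups from histone tails. They do not bind DNA by sequence themselves but are brought to chromatin in complexes such as Sin3, NuRD and CoREST, and ChIP-seq in many cell types places them largely at promoters of active genes. Haemogenic endothelium is the endothelial population of the embryo that gives rise to blood cells under the control of Runx1.

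Promoters are shown first for the regions at gene ends whose peaks were widest in both Bry lists, a ranking that is a description and not a finding. The sequences below are the 250 bases before a transcription start from the RefSeq promoter table on GRCm38.p6, 5′ to 3′ on the strand of the gene. Capitals mark matches on either strand to the motifs searched, of which those matched here were CCCGCCC for SP and KLF factors, CCAAT for NF-Y, TGANTCA for AP-1, AGATAA for GATA factors and CAGCTG for an E-box. Adjacent matches run together in the capitals. Promoters follow the rank of their regions, and H2bc8, whose window overlaps that of H2ac8 on the other strand, and Glt28d2 are left out. Zfyve26 and Rad51b are shown together because they start on opposite strands within the same region.
Zfp467, chr6:48445091-48445340, minus strand: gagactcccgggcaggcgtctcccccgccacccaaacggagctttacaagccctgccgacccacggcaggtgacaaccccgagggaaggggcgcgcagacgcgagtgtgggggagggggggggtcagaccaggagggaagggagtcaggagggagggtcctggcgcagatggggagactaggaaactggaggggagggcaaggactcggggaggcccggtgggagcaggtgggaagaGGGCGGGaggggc
Mid1ip1, chrX:10717115-10717364, plus strand: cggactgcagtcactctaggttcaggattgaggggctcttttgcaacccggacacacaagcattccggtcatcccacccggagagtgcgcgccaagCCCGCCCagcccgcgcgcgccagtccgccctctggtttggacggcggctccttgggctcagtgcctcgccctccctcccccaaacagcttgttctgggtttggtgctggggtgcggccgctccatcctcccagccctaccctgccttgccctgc
Myh9, chr15:77842176-77842425, minus strand: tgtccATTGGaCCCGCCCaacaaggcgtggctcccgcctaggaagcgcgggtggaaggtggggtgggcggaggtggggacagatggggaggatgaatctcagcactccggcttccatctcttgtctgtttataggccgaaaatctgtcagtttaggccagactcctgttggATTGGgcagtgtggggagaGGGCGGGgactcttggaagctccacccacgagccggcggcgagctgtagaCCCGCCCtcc
Zfyve26, chr12:79296283-79296532, minus strand: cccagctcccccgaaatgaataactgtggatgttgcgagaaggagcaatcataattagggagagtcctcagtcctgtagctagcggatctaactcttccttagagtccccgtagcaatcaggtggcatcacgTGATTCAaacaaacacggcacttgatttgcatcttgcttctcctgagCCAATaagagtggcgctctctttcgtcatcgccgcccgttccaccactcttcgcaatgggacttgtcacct
Rad51b, chr12:79297032-79297281, plus strand: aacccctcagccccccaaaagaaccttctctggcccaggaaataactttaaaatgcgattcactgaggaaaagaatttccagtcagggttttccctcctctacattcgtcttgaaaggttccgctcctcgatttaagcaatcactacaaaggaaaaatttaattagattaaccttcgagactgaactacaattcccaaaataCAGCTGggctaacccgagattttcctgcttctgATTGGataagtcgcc
H2ac8, chr13:23571221-23571470, minus strand: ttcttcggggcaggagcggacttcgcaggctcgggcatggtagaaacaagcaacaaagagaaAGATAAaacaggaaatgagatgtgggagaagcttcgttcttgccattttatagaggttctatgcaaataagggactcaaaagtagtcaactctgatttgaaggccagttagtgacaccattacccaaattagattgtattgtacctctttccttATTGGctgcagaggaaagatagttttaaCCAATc

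Zfp467, a zinc finger gene, had 1 match to CCCGCCC and 70.4% GC. Mid1ip1, which acts in the control of fatty acid synthesis, had 1 match to CCCGCCC, and Myh9, the heavy chain of non-muscle myosin IIA, had 3 matches to CCCGCCC and 2 to CCAAT. The promoters of Zfyve26, which acts in lysosome reformation, and Rad51b, which acts in homologous recombination, were poorer in G and C, at 50.8% and 42.8%. H2ac8, a core histone H2A gene, had the lowest GC content of the 6 printed here, 42%, with 2 matches to CCAAT. A match is a run of letters and not a binding site.

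Promoters of cell cycle genes are shown because that gene list held 4 genes with a region at an end, the most of any hand-written list. As a share this was 10.5% of 38 genes, below 11.1% of 27 immediate early genes, beside 2.7% of all protein-coding genes. The promoters were chosen for printing after the values were seen, and the capitals have the same meaning.
Ccnb2, chr9:70421555-70421804, minus strand: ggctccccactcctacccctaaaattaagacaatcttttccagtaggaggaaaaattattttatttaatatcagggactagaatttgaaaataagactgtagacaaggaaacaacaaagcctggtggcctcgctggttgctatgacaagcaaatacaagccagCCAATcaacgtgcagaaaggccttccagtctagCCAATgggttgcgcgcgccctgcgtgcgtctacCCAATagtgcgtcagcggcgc
Mcm6, chr1:128359706-128359955, minus strand: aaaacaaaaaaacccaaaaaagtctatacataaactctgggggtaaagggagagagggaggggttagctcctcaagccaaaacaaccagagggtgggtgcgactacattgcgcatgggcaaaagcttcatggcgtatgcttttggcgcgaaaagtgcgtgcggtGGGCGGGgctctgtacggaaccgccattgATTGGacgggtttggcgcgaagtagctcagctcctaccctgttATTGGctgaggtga
Cdk2, chr10:128705052-128705301, minus strand: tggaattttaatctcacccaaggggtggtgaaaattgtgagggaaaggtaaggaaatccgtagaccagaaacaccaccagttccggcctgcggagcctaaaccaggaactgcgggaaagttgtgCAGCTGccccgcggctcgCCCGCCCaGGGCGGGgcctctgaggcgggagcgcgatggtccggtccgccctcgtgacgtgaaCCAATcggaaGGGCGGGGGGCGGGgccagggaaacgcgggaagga

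Ccnb2, the cyclin of mitotic Cdk1, had 3 matches to CCAAT, all in the part of the window nearest the start. Mcm6, a subunit of the replicative helicase, had 2 matches to CCAAT and 1 to CCCGCCC. Cdk2, the kinase of the G1 to S transition, had 4 matches to CCCGCCC, 1 to CCAAT and 1 to CAGCTG. The promoter of Rbl2, which encodes the pocket protein p130, had no match to any of the 11 motifs searched in the same 250 bases.

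The choice of lists decided how many regions there were. Of 6048 merged regions that held both Bry peaks, the 856 were 14.2% (95% Wilson interval 13.3% to 15.1%, counting error only), and the other 5192 also held a peak of 1 or more of the other lists. Without the Hd1_loxlox Hdac1 list, the regions of both Bry lists and no other would have numbered 2646. The count was 866 without the Hd1_loxlox Hdac2 list, 1040 without the Hd2lox Hdac1 list and 864 without the Hd2lox Hdac2 list, and with both Hd2lox lists left out together it was 1238. For comparison, 647 regions lay in both Hd2lox lists only and 30 in both Hd1_loxlox lists only. The Bry Hdac1 list alone held 663 regions and the Bry Hdac2 list alone held 1709.

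Nearly all regions held exactly 1 peak of each antibody, since 3 of the 856 held more than 2 peaks. They took up 857 Hdac1 peaks, 11.2% of the 7671 Bry Hdac1 peaks, and 859 Hdac2 peaks, 9.26% of the 9279 Bry Hdac2 peaks. The Hdac1 and Hdac2 peaks lay almost on top of each other. Their overlap had a median of 1047.5 bp and covered a median of 99.5% of the narrower peak, and 851 regions had an overlap of at least 50% of it. The centres of the peaks were a median of 110.75 bp apart. Centres within 100 bp of each other were found in 399 regions (46.6%), against 38.8% of the 5192 regions shared with other lists. As a part of the narrower peak the overlap was alike in those shared regions, with a median of 99.5%. It was at least 50% in 99.2% of them, against 99.4% here. The part of peak width in the centre distances was not tested.

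The peaks were narrower than those of shared regions. The Bry Hdac1 peaks ranged over 788 to 4115 bp with a median of 1189.5 bp, against a median of 1494.5 bp in the regions shared with other lists. The Bry Hdac2 peaks ranged over 785 to 3142 bp with a median of 1213 bp, against 1478 bp in the shared regions. The median of the whole Bry Hdac1 list was 1375 bp and that of the whole Bry Hdac2 list 1310 bp, and 633 regions (73.9%) had an Hdac1 peak below the first of these medians and 543 (63.4%) an Hdac2 peak below the second. The antibodies gave the wider peak about equally often. The Hdac1 peak was wider in 429 regions and the Hdac2 peak in 427, and the median difference in width, Hdac1 minus Hdac2, was 1 bp, with quartiles of -214 and 178 bp.

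**Figure D1:**
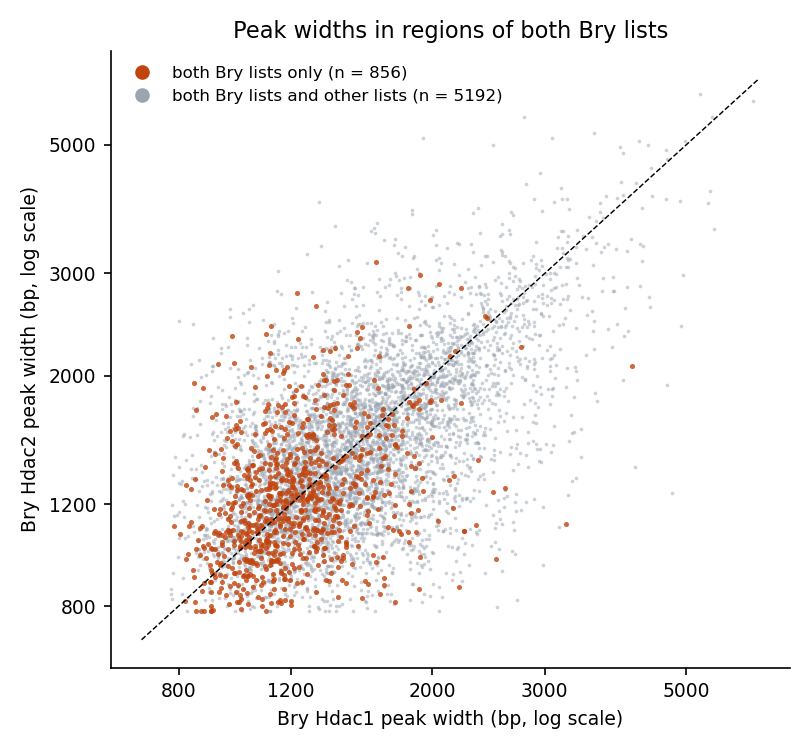
Width in bp of the Bry Hdac1 peak and of the Bry Hdac2 peak in the 856 regions of both Bry lists only and in the 5192 regions that 1 or more other lists share. The regions of both Bry lists only gather at narrow widths, the Hdac1 median being 1189.5 bp and the Hdac2 median 1213 bp.

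In the plot of widths by region, the regions of both Bry lists only end at 4115 bp (Hdac1) and 3142 bp (Hdac2), while the shared regions reach 6359 bp (Hdac1) and 6130 bp (Hdac2). Peaks of these regions also lay later in the deposited files, at a median of 70.3% of the way through the Hdac1 list and 59.3% through the Hdac2 list, against 37.4% and 32.6% for the shared regions. The meaning of that order is not documented, and it goes with width, so wide peaks stood early (Spearman correlation of order and width across peaks -0.79 for the Hdac1 list and -0.73 for the Hdac2 list, as a description).

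The share of Bry regions found in no other list was lower in each wider group of peaks. All 6048 regions with both Bry peaks were placed in 5 groups of 1209 or 1210 by the mean of their width percentiles. In the narrowest group 29.3% were in no other list, and in the next groups 19.9%, 12.3% and 7.03%. In the widest group 2.15% were in no other list, which is 26 regions. The part of width in the other results below was not tested except where values within these groups are given.

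**Figure D2:**
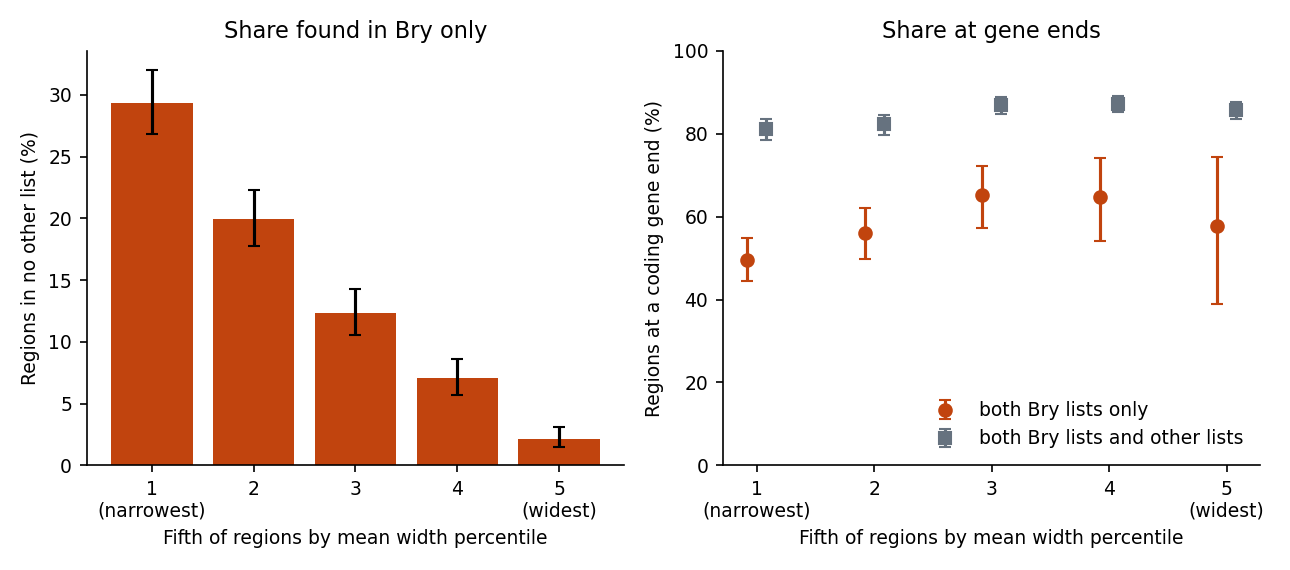
Share of regions with both Bry peaks that lay in no other list, and share at a gene end, in 5 groups from narrow to wide mean width percentile, with 95% Wilson intervals. The share in no other list runs from 29.3% in the narrowest group to 2.15% in the widest, and in each group fewer regions of both Bry lists only than shared regions lay at a gene end.

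Most of the regions lay at genes, but more of them lay away from gene ends than among the shared regions. A gene end here is either annotated end of a RefSeq protein-coding gene with 1000 bp on each side. Of the 856 regions, 478 lay at a gene end (55.8%, 95% interval 52.5% to 59.1%), 265 inside an annotated gene but at no such end (31.0%, 28.0% to 34.1%) and 113 outside annotated genes (13.2%, 11.1% to 15.6%). Of the shared regions 84.9% lay at a gene end (83.9% to 85.8%), 13.4% inside and 1.69% outside (1.38% to 2.08%). Among the 647 regions of both Hd2lox lists only, 62.6% lay at a gene end (58.8% to 66.2%), 31.8% inside and 5.56% outside. Of regions in the Bry Hdac1 list alone, 51.7% lay at a gene end and 12.8% outside genes. Those in the Bry Hdac2 list alone had 38.7% and 20.7%, and the 30 in both Hd1_loxlox lists only had 36.7% and 33.3%. All 24761 merged regions had 38.4% at a gene end and 25.0% outside genes. Without the Hd1_loxlox Hdac1 list, 74.1% of the then 2646 regions lay at a gene end and 6.46% outside genes.

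The same values read the other way give the share of Bry regions that no other list held. It was 9.79% of the 4885 regions with both Bry peaks at gene ends, 27.5% of the 962 inside genes and 56.2% of the 201 outside genes (49.3% to 62.9%). Among regions of like width the shares at gene ends also differed. In the narrowest group 49.6% of the regions of both Bry lists only lay at a gene end, against 81.2% of the shared ones, and in the middle group the shares were 65.1% and 87.0%. In the widest group they were 57.7% of 26 regions and 85.6% of 1184 regions.

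Distances to listed starts of protein-coding genes gave the same contrast with shared regions, but not with regions of both Hd2lox lists only. They were taken for the 828 regions off chromosome 18, which the promoter table does not cover. A start lay within 1000 bp of 397 regions (47.9%, 44.6% to 51.4%), against 76.0% of 5044 shared regions and 48.0% of 625 regions of both Hd2lox lists only. Nearly all of the 397 covered the start itself, 385 in number. Regions more than 50000 bp from any such start were 18.1%, against 11.6% of shared regions and 20.6% of those of both Hd2lox lists only.

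**Figure D3:**
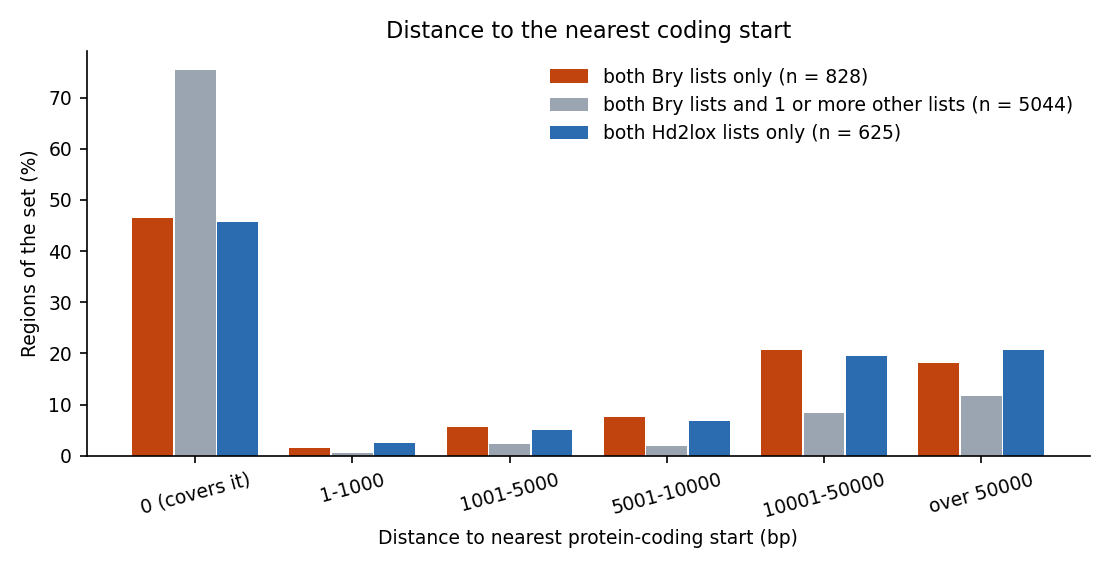
Share of regions by distance in bp to the nearest listed start of a protein-coding gene, for regions of both Bry lists only, of both Bry lists and 1 or more others, and of both Hd2lox lists only. Starts are covered by 46.5% of the regions of both Bry lists only, 75.4% of shared regions and 45.6% of those of both Hd2lox lists only.

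In the plot of distances to starts, 1.45% of the regions of both Bry lists only lay within 1000 bp of a start without covering it. A further 5.68% lay beyond that and up to 5000 bp, 7.61% from there up to 10000 bp and 20.7% from there up to 50000 bp. These distance classes differ in width, so the low shares in the short classes do not show a gap. Of the 378 regions at no end of a protein-coding gene, 69 lay at an end of another annotated gene, which was a long non-coding RNA gene for 47, an snRNA gene for 12, a tRNA gene for 9, a pseudogene for 5 and a miRNA gene for 2. The other 309 lay at no annotated gene end of any kind.

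In all, 591 of 21883 protein-coding genes had such a region at an end, which is 2.7% of these genes, against 26.3% with both Bry peaks at an end. Without the Hd1_loxlox Hdac1 list it would be 2515 genes, 11.5%. For the 478 of these genes with a listed strand, the region lay at the start alone for 431 (90.2%), at the stop alone for 35 (7.32%) and at both ends for 12. Regions at the ends of 2 or more protein-coding genes were 112 of 478 (23.4%). Among regions near starts, 56 of 397 (14.1%) had starts on both strands, against 12.7% of 3833 shared regions.

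The rule removed regions with a peak of another list, so few such peaks at these genes were in part built in. The counts are given as description. Of the 591, 438 (74.1%) had no peak of the other 4 lists within the gene or 1000 bp of it, and 53 (8.97%) had a peak of another list at an end, which was an Hd1_loxlox Hdac1 peak for 35 of them, an Hd1_loxlox Hdac2 peak for 3, an Hd2lox Hdac1 peak for 20 and an Hd2lox Hdac2 peak for 16. By region, the nearest peak of another list lay 6 to 679965 bp away with a median of 21884 bp. It lay within 500 bp for 14 regions, within 2000 bp for 52, within 10000 bp for 233 (27.2%) and within 100000 bp for 788 (92.1%). The nearest such peak was most often one of the Hd1_loxlox Hdac1 list, for 352 regions (41.1%).

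A few regions lay close to the limits of the choice. The smallest gaps to another list were 6 bp for chr16:95860560-95862159 inside 1600002D24Rik, 9 bp for a region inside Myo1c and 23 bp for a region inside Gm23143. The smallest overlaps of the Hdac1 and Hdac2 peaks were 322 bp at Emc9, 360 bp at Aldh3a2 and 381 bp at Sema6c. Just outside lay a region at Atp2b4, where an Hd2lox Hdac2 peak overlapped the Bry peaks by 31 bp, a region at chr15:38197472-38200295 with an overlap of 57 bp by an Hd1_loxlox Hdac1 peak, and a region at Nfya and Oard1 with an overlap of 117 bp. The nearest pair of Bry peaks that missed each other lay 173 bp apart on chromosome 8.

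Named regions at gene ends were the 25 with the widest peaks, ranked by the lower of the width percentiles of their Hdac1 and Hdac2 peaks. The first was chr6:48443392-48445930 at Zfp467, a zinc finger gene, and Sspo, with an Hdac1 peak of 2440 bp and an Hdac2 peak of 2514 bp. The Mid1ip1 region at chrX:10716705-10719242 had peaks of 2418 and 2535 bp for Hdac1 and Hdac2, and its nearest peak of another list was 679965 bp away, the farthest of all 856. The Myh9 region at chr15:77840265-77843022 had peaks of 2758 bp (Hdac1) and 2240 bp (Hdac2), and the region between Zfyve26 and Rad51b at chr12:79295500-79298328 had 2214 bp (Hdac1) and 2829 bp (Hdac2). These 4 regions lay 3759 to 679965 bp from the nearest peak of another list, with Zfp467 the nearest.

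Histone genes gave the widest Hdac1 peak of the 856 regions. At chr13:23570030-23574144 an Hdac1 peak of 4115 bp and an Hdac2 peak of 2079 bp covered ends of H2ac8, H2bc8, H2bc7 and H2ac7, core histone genes of the large cluster. A further region at chr13:23760337-23762548 lay at H4c1 and H3c1, with peaks of 2043 bp (Hdac1) and 1123 bp (Hdac2), 204484 bp from a peak of another list. Thus 6 of 65 histone genes matched by name had such a region at an end (9.23%, beside 2.7% of all protein-coding genes), and 10 had both Bry peaks, beside 26.3% of all. This list was drawn up after the values were seen, the 6 genes share 2 regions, and near-identical copies of these genes can receive each other's reads.

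Other named regions lay at genes of transcription factors and a co-repressor. Nfatc4, a calcineurin-regulated transcription factor, had an Hdac1 peak of 1910 bp and an Hdac2 peak of 2986 bp. Etv1, an ETS transcription factor, had 1884 bp (Hdac1) and 1791 bp (Hdac2), with the nearest other list 122027 bp away. Bcor, a co-repressor of BCL6 and a subunit of a variant Polycomb complex, had the widest Hdac2 peak of the set, 3142 bp, and an Hdac1 peak of 1633 bp. Another region at chrX:12004941-12007857, outside annotated genes with Bcor as its nearest protein-coding gene, had peaks of 2047 bp (Hdac1) and 2882 bp (Hdac2).

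The other regions among the 25 lay at genes of varied function. Pgk1, a glycolytic kinase, had peaks of 1872 bp (Hdac1) and 1896 bp (Hdac2), and its nearest other-list peak was 397875 bp away. Rpa3, a subunit of the single-strand binding protein RPA, had 1703 bp (Hdac1) and 1681 bp (Hdac2), and Ercc5, the XPG endonuclease of nucleotide excision repair, had 1691 bp (Hdac1) and 1640 bp (Hdac2). Vamp8, a SNARE of late endosomes, had 1832 bp (Hdac1) and 2835 bp (Hdac2). Bag3, a co-chaperone of Hsp70, had 1641 bp (Hdac1) and 1901 bp (Hdac2). The others were at Glt28d2, Nynrin, Gnpda1, Slc25a23 with Crb3, Abt1, Ier2, Rbl2, Lrrc42 with Hspb11, Upf2, Wdr74 with 1700092M07Rik and Stx5a, Bckdha with Exosc5, and S100a10. Their Hdac1 peaks were 1595 to 2220 bp wide and their Hdac2 peaks 1565 to 2697 bp wide.

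Regions away from the outer ends of genes included some in genes of the blood and vessel lineages. The widest inside a gene was chr5:147720972-147723294 in Flt1, a VEGF receptor of endothelium, with peaks of 2134 bp (Hdac1) and 2164 bp (Hdac2). An Hd1_loxlox Hdac1 peak lay 1274 bp from it. A second Flt1 region at chr5:147657439-147658539 had peaks of 870 bp (Hdac1) and 1101 bp (Hdac2). The next widest were in Dpcd, Bcl2l1, Prr14 and Ctnnd1, with Hdac1 peaks of 1856 to 2066 bp and Hdac2 peaks of 1769 to 1939 bp. The regions in Prr14 and Ctnnd1 covered a listed internal start of the gene. Bcl2l1 encodes the anti-apoptotic protein Bcl-xL and Ctnnd1 encodes p120-catenin, which holds cadherins at the cell surface. Outside genes the widest after the one near Bcor were nearest to Tpt1, to Hes1, a target of Notch, to Myzap and to Slc2a3. The region nearest Hes1, at chr16:29944998-29946982, was 118374 bp from it and had peaks of 1823 bp (Hdac1) and 1692 bp (Hdac2).

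Runx1, the transcription factor that haemogenic endothelium needs to form blood, had a region inside the gene at chr16:92821834-92822849. It lay 3225 bp from the nearest listed start of the gene and had an Hdac1 peak of 874 bp and an Hdac2 peak of 1016 bp, both narrow. The nearest peak of another list was 60730 bp away, though the gene elsewhere held Hd1_loxlox Hdac1 and Hd2lox Hdac1 peaks. Egfl7 and Stab2, 2 of 34 listed endothelial genes, also had a region inside the gene and none at an outer end. The same held for 195 of all 21883 protein-coding genes. The region in Egfl7 covered a listed internal start. Pecam1, the CD31 adhesion molecule of endothelium, was the only endothelial gene of 34 with a region at an end. That is 2.94%, close to the 2.7% of all protein-coding genes. Pecam1 had peaks of 1936 bp (Hdac1) and 1263 bp (Hdac2) at chr11:106713906-106715922, and the nearest peak of another list was 51147 bp away.

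None of the signalling genes listed had such a region at an end. Over the TGF-beta, BMP, Notch, Wnt and VEGF and receptor tyrosine kinase lists and the haematopoietic transcription factors, the count was 0 of 166 genes, beside 2.7% of all protein-coding genes. In these lists 92 genes (55.4%) had both Bry peaks at an end, beside 26.3% of all protein-coding genes. The count of 0 depends on which lists remove regions. Without the Hd1_loxlox Hdac1 list 22 of the 166 genes (13.3%) would have such a region at an end, beside 11.5% of all protein-coding genes. Without the Hd2lox Hdac1 list 3 of them would (1.81%), beside 3.51% of all, and without the Hd1_loxlox Hdac2 or the Hd2lox Hdac2 list the count stayed at 0. Inside the gene only, 7 of the 166 had such a region, beside 195 of all 21883 protein-coding genes, with no test made. Among the 7 were Maml2, a co-activator of Notch, Flt1, Runx1, Etv6, Meis1 and Zfpm1. The Maml2 region had peaks of 2242 bp (Hdac1) and 1080 bp (Hdac2) and lay 144339 bp from another list.

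Cell cycle, immediate early and p53 genes gave 8 of the 11 listed genes. The cell cycle list had 4 of 38 (Ccnb2, Cdk2, Mcm6 and Rbl2), the immediate early list 3 of 27 (Btg2, Ier2 and Ier3) and the p53 list 2 of 20 (Btg2, and Sesn1, a stress-induced regulator of mTORC1), beside 2.7% of all protein-coding genes. The share with both Bry peaks at an end was 65.8% in the cell cycle list, 81.5% in the immediate early list and 55% in the p53 list, beside 26.3% of all protein-coding genes. Without the Hd1_loxlox Hdac1 list the counts would be 8 of the 38 cell cycle genes, 12 of the 27 immediate early genes and 7 of the 20 p53 genes, beside 11.5% of all. The Ier2 and Ier3 regions lay 653 and 143 bp from an Hd1_loxlox Hdac1 peak, which itself lay at an end of the same gene. Btg2, an anti-proliferative gene, had a region with 3 peaks, of which the overlapping pair measured 1497 bp (Hdac1) and 1468 bp (Hdac2), and no peak of another list within 139125 bp.

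The nearest peak of another list lay 29438 to 80470 bp from the regions at the starts of the 4 cell cycle genes, beside a median of 21884 bp over all 856 regions. The Ccnb2 region at chr9:70420691-70422085 had peaks of 1250 bp (Hdac1) and 1067 bp (Hdac2), with the nearest other peak 80470 bp away. The Mcm6 region at chr1:128358887-128360131 had 1245 bp (Hdac1) and 1161 bp (Hdac2), and the Rbl2 region at chr8:91069623-91071425 had 1701 bp (Hdac1) and 1639 bp (Hdac2). Cdk2 had a region at each end. The one at its start, chr10:128704026-128705632, had peaks of 1184 bp (Hdac1) and 1586 bp (Hdac2). The one at its stop, chr10:128695507-128696969, also lay at ends of Rab5b and Pmel and had 1144 bp (Hdac1) and 1358 bp (Hdac2).

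The remaining lists held few or no such genes, beside 2.7% of all protein-coding genes. Chd2 was the only one of 25 chromatin remodeller genes and Sirt2 the only one of 16 other deacetylase and sirtuin genes. The counts were 0 of 34 for subunits of Hdac1 and Hdac2 complexes, 0 of 29 for Polycomb, 0 of 25 for blood cell genes, 0 of 30 for cardiac, smooth muscle and mesenchymal genes, 0 of 20 for pluripotency and 0 of 24 for neural and endoderm genes. Bcor, named above with a region at an end, was not in the Polycomb list. In the same order, both Bry peaks lay at an end of 23, 22, 3, 8, 6 and 4 genes. Where that number is small, a count of 0 says little. Over all hand-written lists 11 of 475 genes (2.32%) had such a region at an end, close to the 2.7% of all genes. Both Bry peaks lay at an end of 246 of the 475 (51.8%), beside 5756 of all 21883 protein-coding genes (26.3%). Without the Hd1_loxlox Hdac1 list the 11 would be 80, beside 11.5% of all genes, with 6 of 34 complex subunits, 5 of 29 Polycomb genes and 5 of 34 endothelial genes among them. Of families matched by name, 18 of 397 Zfp genes (4.53%), 4 of 83 ribosomal protein genes, 4 of 78 mitochondrial ribosomal protein genes, 2 of 74 oxidative phosphorylation genes and 8 of 364 solute carrier genes had one, and none of 1106 olfactory receptor or 39 Hox genes did. Both Bry peaks lay at an end of 0 of these olfactory receptor genes and 1 of these Hox genes, so their counts of 0 say little. Other families had 1 of 39 (proteasome) and 2 of 56 (translation initiation factors). Of the markers of the labelled cell type, Pecam1 had a region at an end and Runx1 inside, out of 15, and none of 8 blood, 8 cardiac, 4 ES cell and 3 neural markers had one at an end. Both Bry peaks lay at an end of 6 of the 15, and of 2 blood, 0 cardiac, 0 ES cell and 1 neural markers. Binding is not expression, so this does not name the cells.

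Some genes held several such regions. Paqr7, a membrane progesterone receptor, had 3, all at its ends, and 2 of them were 224 bp apart, the only neighbours within 1000 bp. They were chr4:134494292-134495769, chr4:134495994-134497695 and chr4:134510641-134511659, and their peaks were 1019 to 1273 bp wide for Hdac1 and 888 to 1686 bp for Hdac2. Kat6a, a histone acetyltransferase needed for blood stem cells, had 3 inside the gene, with Hdac1 peaks of 998 to 1017 bp. Tex14 also had 3 inside, and each overlapped a small RNA gene, Gm22068, Rnu3b3 or Rnu3b4. Rnu3b3 and Rnu3b4 are copies in a family of U3 small nucleolar RNA genes, so the placing of reads there is uncertain. Otherwise the regions were spread out, with 13 neighbours within 10000 bp of each other.

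The Bry-only share differed by chromosome. It was 6.81% of 617 regions with both Bry peaks on chromosome 11 (42 regions), and 20.6% of 247 on chromosome 14, 20.5% of 258 on chromosome 6 and 19% of 400 on chromosome 1. The other lists differed by chromosome too. On chromosome 11 the Bry lists held 772 Hdac1 and 885 Hdac2 peaks, against 1015 Hdac1 and 801 Hdac2 peaks in Hd1_loxlox and 558 Hdac1 and 588 Hdac2 peaks in Hd2lox. On chromosome 14 the Bry lists held 295 Hdac1 and 360 Hdac2 peaks, against 229 Hdac1 and 146 Hdac2 peaks in Hd1_loxlox and 226 Hdac1 and 241 Hdac2 peaks in Hd2lox. The part of these peak numbers in the shares was not tested. Chromosome X held 7 such regions of 15 with both Bry peaks (46.7%, 24.8% to 69.9%). Of the 7, 6 lay at gene ends, at Rbm3, a cold-induced RNA-binding protein, Mid1ip1, Bcor, Prkx, Efnb1 and Pgk1. The lists held few peaks on X, 25 for Bry Hdac1 and 63 for Bry Hdac2, against 17 for Hdac1 and 2 for Hdac2 in Hd1_loxlox and 111 for Hdac1 and 77 for Hdac2 in Hd2lox. Chromosome Y gave 2 of 3, and the Hd2lox lists held 0 peaks there.

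**Figure D4:**
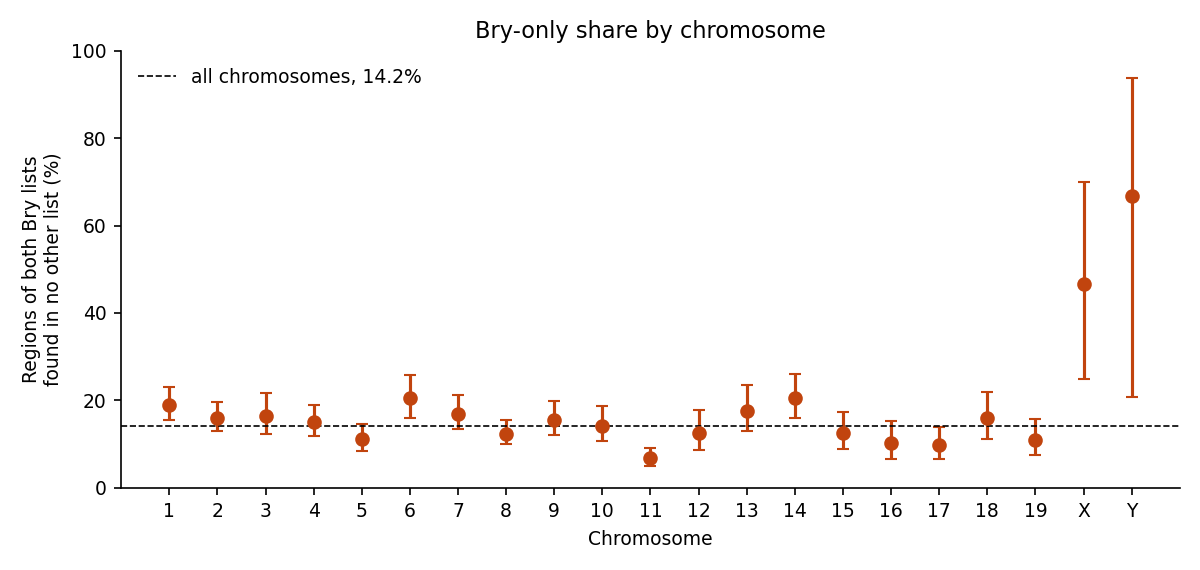
Percent of regions with both Bry peaks that lay in no other list, by chromosome, with 95% Wilson intervals. Chromosome 11 has 6.81% and chromosomes 6 and 14 over 20%, while the interval for X, with 15 regions, spans 24.8% to 69.9%.

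The plot by chromosome shows overlapping intervals for most autosomes, with chromosome 11 the lowest. The counts on X and Y are small, and the intervals cover counting error only.

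Promoters under the regions were CpG-rich, though less so than under shared regions. The regions overlapped 502 promoters of 438 protein-coding genes in the table, taken as 300 bp windows of 250 bp before and 50 bp after a start. Their median was 20 CpGs, with an observed over expected CpG ratio of 0.781 and 59.3% GC. Promoters in shared regions, 5033 in number, had a median of 27 CpGs, a ratio of 0.863 and 65.7% GC. The 337 promoters in regions of both Hd2lox lists only had 27 CpGs, a ratio of 0.786 and 69.3% GC, and all 21262 had 13, 0.567 and 56.3%. A ratio of 0.6 or more was found in 82.3% of the promoters (78.7% to 85.4%), against 89.5% in shared regions, 80.7% in those of both Hd2lox lists only and 47.7% of all.

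CCAAT was in 44.8% of the promoters under these regions (40.5% to 49.2%), against 34.4% in shared regions (33.1% to 35.7%), 24.3% in regions of both Hd2lox lists only (20.1% to 29.2%) and 38.2% of all. The letters CCGGAAGT of ETS factors were in 12.4%, against 8.68% in shared regions, 1.78% in regions of both Hd2lox lists only and 5.15% of all. The CRE letters TGACGTCA were in 5.18%, against 3.54%, 0.890% and 2.23% in the same order. CCCGCCC was in 49.8%, against 57.5% in shared regions, 56.7% in those of both Hd2lox lists only and 33.9% of all, and the NRF1 motif was in 9.36%, against 12.3%, 5.64% and 6.38%. The GC content of these promoters was lower than in shared regions and higher than in all, and its part in the motif shares was not tested.

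**Figure D5:**
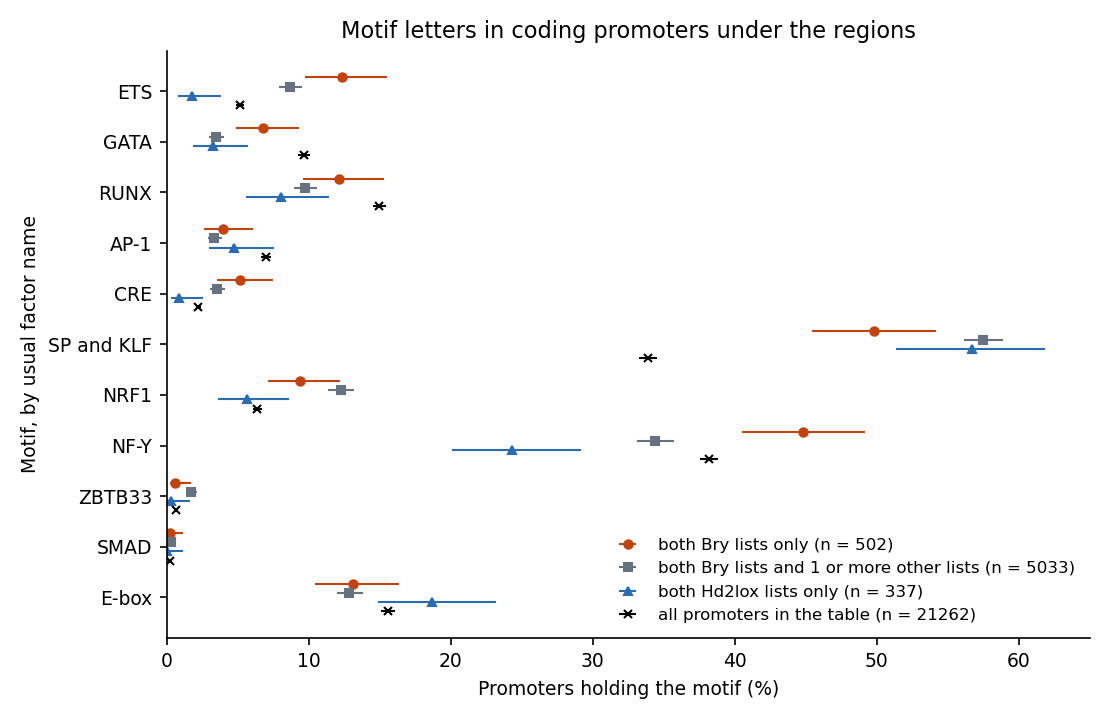
Share of protein-coding promoters with a match to each of 11 motifs, for regions of both Bry lists only, shared regions, regions of both Hd2lox lists only and all promoters. Under regions of both Bry lists only, CCAAT reaches 44.8% and CCGGAAGT 12.4%, above the shares in the 3 other sets, while CCCGCCC at 49.8% is below shared regions.

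The plot of motif shares also shows the other motifs. AGATAA was in 6.77% of the promoters under these regions, above 3.48% in shared regions and 3.26% in those of both Hd2lox lists only and below 9.65% of all. TGTGGT of RUNX factors was in 12.2%, against 9.72%, 8.01% and 15%. CAGCTG was in 13.1%, against 12.9%, 18.7% and 15.6%, and TGANTCA in 3.98%, against 3.34%, 4.75% and 6.99%. The ZBTB33 motif was in 0.598%, against 1.71%, 0.297% and 0.673%, and GTCTAGAC of SMAD factors in 0.199%, against 0.278%, 0% and 0.226%. Matches were counted on both strands of the 300 bp window, and none of the motifs contains another.

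Mature miRNA sequences lay in or beside a few regions. Both mature arms of miR-210, a miRNA known for induction by low oxygen, lay within the Hdac2 peak of chr7:141221327-141222544. They lay just outside its Hdac1 peak, which began at position 141221467, the base directly beside the 5p arm. The miR-210 gene itself, chr7:141221384-141221493, overlapped both peaks. The Hdac1 peak was 886 bp wide and the Hdac2 peak 1218 bp. The mature arms are shown with the seed, bases 2 to 8, in capitals.
mmu-miR-210-5p, chr7:141221445-141221466, minus strand: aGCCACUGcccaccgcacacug
mmu-miR-210-3p, chr7:141221407-141221428, minus strand: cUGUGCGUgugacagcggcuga

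The region lay 5906 bp from the nearest peak of another list. Of other miRNA genes, miR-8092 lay inside both peaks of a region at Zfp518a, while miR-695 lay just outside both peaks of a region at Pigu.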

How the data were processed

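Each of the 6 ChIP libraries had 1 deposited list of peak positions (chromosome, start and end, with no score or read count), called per library on mm10. Per the submitters' processing notes, the tools named were bcl2fastq, Bowtie2 2.2.9, SAMtools 1.3.1 and MACS2 2.1.1.20160309. Threshold, calling mode and use of the input: not given in the sources used here. Read depth is unknown, so the number of peaks called was the only measure of yield. Positions are 1-based.

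Peaks of the 6 lists were merged at an overlap of 1 bp. Genes, promoter and miRNA sequences came from RefSeq tables of GRCm38.p6, the assembly of mm10. The gene table lists outer ends, so internal promoters come only from the promoter table, which lists 17491 protein-coding genes and none on chromosome 18. Shares have 95% Wilson intervals. No p-value was computed. Named regions were the 25 widest at gene ends by the lower of the Hdac1 and Hdac2 width percentiles, the 5 widest inside and outside genes, every listed gene with a region at an end, genes with several regions and regions nearest the limits. The regions and gene lists were chosen with earlier results of these data known. The merging was tested on simulated data. Python 3.11.15, numpy 2.4.6, pandas 2.3.3, scipy 1.17.1 and matplotlib 3.10.9 were used.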

Additional observations from a re-analysis of the deposited data

How the results depend on the processing

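No paired analysis was possible because each line and antibody had 1 library and no test was made. Of 160 values recomputed under other settings, 100 stayed within the margin set (the 95% interval, or 1.5 times for a count) and 60 moved. Requiring 50% overlap, merging without chaining, and removing regions within 500 or 2000 bp of another list gave 804 to 857 regions, and only the last of these moved a further value, the share of regions in no other list, to 13.3%.

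Leaving out each other list in turn gave 864 to 2646 regions (14.3% to 43.7% of those with both Bry peaks), of which 56.0% to 74.1% were at gene ends, 598 to 2515 genes, 11 to 80 listed genes, median widths of 1190 to 1318 bp (Hdac1) and 1213 to 1298 bp (Hdac2), list positions of 53.2 to 70.4 and 47.6 to 59.3, distances of 25535 to 27308.5 bp, 82.1% to 85.7% CpG-rich promoters and 41.2% to 45.0% with CCAAT; the upper counts were without the Hd1_loxlox Hdac1 list. Without both Hd1_loxlox lists the values were 2718 regions, 44.8%, 73.7% at gene ends, 2563 genes, 83 listed genes, widths of 1319 and 1301 bp, positions of 52.8 and 47.2, a distance of 35845 bp and 85.6% CpG-rich. Without both Hd2lox lists they were 20.5%, 64.7% at gene ends, 948 genes, 21 listed genes, an Hdac1 width of 1214 bp and 37623.5 bp. Fewer lists remove fewer regions by construction.

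With peaks at or above the median width in all lists there were 488 regions (19.0%), 77.9% at gene ends, 19 listed genes, widths of 1623 and 1608 bp, a distance of 40421.5 bp, positions of 35.0 and 31.2 and 85.4% CpG-rich. With wide Bry peaks alone there were 122 regions (4.74%), 61.5% at gene ends, 97 genes, 4 listed genes, widths of 1619.5 and 1651 bp, positions of 46.6 and 41.6 and 50.6% with CCAAT. The share at gene ends was 52.0% with a window of 0 bp, 67.6% with 5000 bp (23 listed genes), 47.9% by listed starts and 63.9% over all annotated genes.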
